A study of Homo sapiens with 2 samples.

Results

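The genes described here encode the proteins of the cytoplasmic ribosome. They were taken as every protein-coding gene whose symbol is RPL or RPS followed by a number, with or without a final A or X, together with RPSA, RPLP0, RPLP1 and RPLP2. The rule found 77 of the 22965 gene IDs listed, 31 for the small subunit and 46 for the large subunit, and it used no measured value. All 77 had counts above 0 in both libraries.

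RNA-seq counts came from H460, an established line of human large-cell lung cancer cells grown in DMEM with fetal bovine serum. In the PKP2 library the cells overexpressed PKP2, delivered by pSin-puro, and in the control library they carried the same vector without it. The labels give passage 5 for both cultures, and each condition had 1 library. The labels do not say whether the overexpressing cells were 1 clone or a pool, or which promoter drove PKP2. The study asked which genes lie downstream of PKP2, which encodes the desmosomal plaque protein plakophilin 2.

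A ribosome holds a small subunit, which reads the messenger RNA, and a large subunit, which joins amino acids and passes the growing chain through its exit tunnel. Each is built in the nucleolus from ribosomal RNA and 1 copy of most of its proteins, so cells make these proteins in balanced amounts. Their mRNAs are short, very abundant and mostly begin with a run of pyrimidines, the 5′ terminal oligopyrimidine tract or TOP, through which mTOR signalling and the protein LARP1 govern their translation. Human ribosomal protein genes have given rise to a great many processed pseudogenes, intronless copies scattered over the genome.

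The TOP tract was looked for as a C at the annotated start followed by at least 4 bases that are C or T. The sequences below show 30 bases around the start, 15 on either side, of the 6 genes at least 1.5-fold lower in the PKP2 library, of the stalk gene RPLP2, of RPL14, which had the highest ratio, and of RPS24, which had the highest level per coding length in the PKP2 library. They are from RefSeq on GRCh38.p14, written 5′ to 3′ on the gene's strand, and capitals mark the tract from the first transcribed base. The sites are chr19:8321481-8321510 (plus strand) for RPS28, chr14:49598696-49598725 (minus) for RPS29, chr19:41860240-41860269 (plus) for RPS19, chr2:216498829-216498858 (plus) for RPL37A, chr19:5690280-5690309 (plus) for RPL36, chr16:89560667-89560696 (plus) for RPL13, chr11:809952-809981 (plus) for RPLP2, chr3:40457324-40457353 (plus) for RPL14 and chr10:78033848-78033877 (plus) for RPS24.
RPS28: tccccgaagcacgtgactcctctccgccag
RPS29: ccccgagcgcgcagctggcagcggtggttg
RPS19: ggaaaccccgtcgttCCCTTTCCCCTggct
RPL37A: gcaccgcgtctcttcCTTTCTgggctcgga
RPL36: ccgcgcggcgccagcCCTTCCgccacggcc
RPL13: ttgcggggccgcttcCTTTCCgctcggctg
RPLP2: ttgcgtcggcgccttCCTTTTCCTCCCTgt
RPL14: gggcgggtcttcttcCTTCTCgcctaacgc
RPS24: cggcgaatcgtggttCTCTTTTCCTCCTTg
The tract stood at the annotated start of 7 of these 9 genes, while the entries of RPS28 and RPS29 held none at that base. In RPS28 a run of C and T begins 1 base further on.

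The PKP2 library held 20319137 counts and the vector library 23513304. Scaling factors by the TMM method, which lines up the bulk of genes, were 0.991 for the PKP2 library and 1.01 for the vector library, and all CPM values (counts scaled to a fixed library size) use them. PKP2 itself (ENSG00000057294) had 1330 counts (66.0 CPM) in the PKP2 library and 181 counts (7.63 CPM) in the vector library, 8.66-fold higher in the direction of the label. Of 5 epithelial marker genes, 4 were above 0 in both libraries and CDH1 was not listed. The 4 genes had summed levels of 1233 CPM in the PKP2 library and 1223 CPM in the vector library. EPCAM added little to these sums, with 16 counts (0.79 CPM) in the PKP2 library and 28 (1.18 CPM) in the vector library. These sums hold opposite changes: KRT19 had 578 CPM in the PKP2 library and 274 CPM in the vector library, KRT8 465 CPM in the PKP2 library and 697 CPM in the vector library, and KRT18 188 CPM in the PKP2 library and 251 CPM in the vector library. Of 4 fibroblast markers, 3 were above 0 in both, with sums of 20.01 CPM in the PKP2 library and 47.6 CPM in the vector library. Endothelial and erythroid markers were all at 0 or not listed in the PKP2 library and had 1 gene each above 0 in the vector library, and of the leukocyte markers CD14 alone was above 0 in each. The part of these differences in the results below was not tested. With 1 library a group no difference has a replicate check, no test across samples can be made, and every 95% interval is an exact binomial one that covers counting error only.

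Ribosomal protein mRNAs made up a smaller part of the PKP2 library. The 77 genes together took 2.89% of all counts in the PKP2 library (587193 counts, interval 2.88% to 2.90%) and 3.47% in the vector library (815141 counts, 3.46% to 3.47%), a log2 ratio of shares of -0.26. Both subunits contributed. Small-subunit genes held 1.23% in the PKP2 library and 1.41% in the vector library, a log2 ratio of -0.20, and large-subunit genes held 1.66% in the PKP2 library and 2.05% in the vector library, a log2 ratio of -0.31. In bulk RNA, fewer cells with these mRNAs and less of them in each cell cannot be told apart.

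Gene by gene, 69 of the 77 had a log2 ratio (PKP2 library over vector library) below 0 and 8 above. Of the 15991 genes that averaged at least 10 counts over both libraries 52.7% lay below 0 and 47.3% above. Of the 4845 genes that averaged at least 1000 counts, a class that holds 72 of the 77, 42.1% lay below 0 and 57.9% above. The median ratio of the ribosomal protein genes was -0.27, a level 1.20-fold lower, with quartiles of -0.38 and -0.11, against medians of -0.03 over the 15991 genes and 0.06 over the 4845. The counting interval lay wholly below 0 for 63 members and wholly above 0 for 5, and it held 0 for 9. Over the 4845 genes these shares were 32.0% below and 46.8% above.

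The differences were small in size. At least 20% lower in the PKP2 library, a log2 ratio of -0.32 or less, were 32 members, or 41.6%, against 25.5% of the 15991 genes and 12.3% of the 4845. For 20 of them the whole interval lay beyond this line. At least 25% higher, the same distance on the log2 scale, was 1 member, RPL14, against 16.9% of the 15991 genes and 15.2% of the 4845. These lines are used throughout. At least 1.5-fold lower were 6 members, against 12.9% of the 15991 genes and 3.59% of the 4845, and 0 members were 1.5-fold higher, against 6.87% and 3.98%. None reached 2-fold, against 4.61% and 0.846% on the lower side and 2.46% and 1.03% on the higher side.

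**Figure D1:**
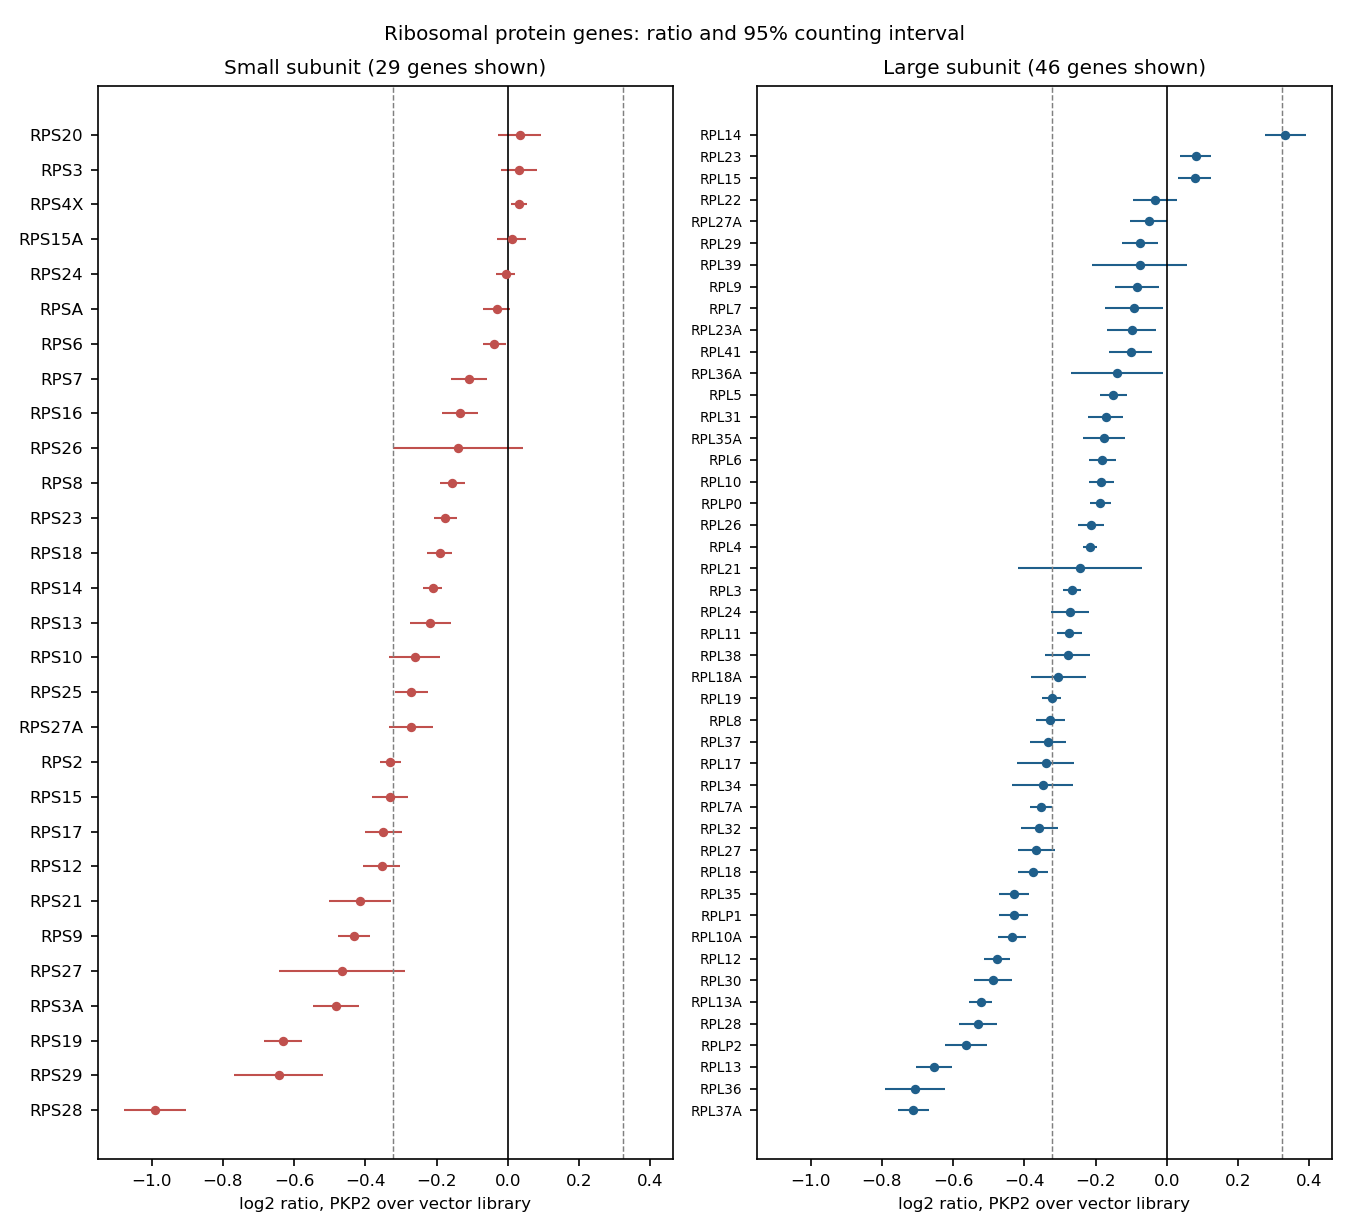
Log2 ratio of ribosomal protein genes, PKP2 library over vector library (x axis), by subunit and ordered by ratio, with points for the ratio and bars for its 95% counting interval. Dashed lines mark 20% lower and 25% higher. Of the 75 genes shown 68 lie left of 0, from RPS28 at -0.99 to RPL14 at 0.33.

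The large and small subunits differed little from each other. The small-subunit median was -0.22 (quartiles -0.38 and -0.07), with 26 of 31 genes below 0 and 12 at least 20% lower. The large-subunit median was -0.27 (quartiles -0.37 and -0.14), with 43 of 46 below 0 and 20 at least 20% lower. The difference of the medians, small minus large, was 0.055, which is less than the distance between the quartiles of either subunit. It was 0.10 with a correction for transcript GC content and also against the genes nearest in GC content and length, and 0.12 with a correction for coding GC content and also without the members that share 20% or more of their 31-base stretches with another listed gene. Genes are not replicates, so the difference has no test.

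**Figure D2:**
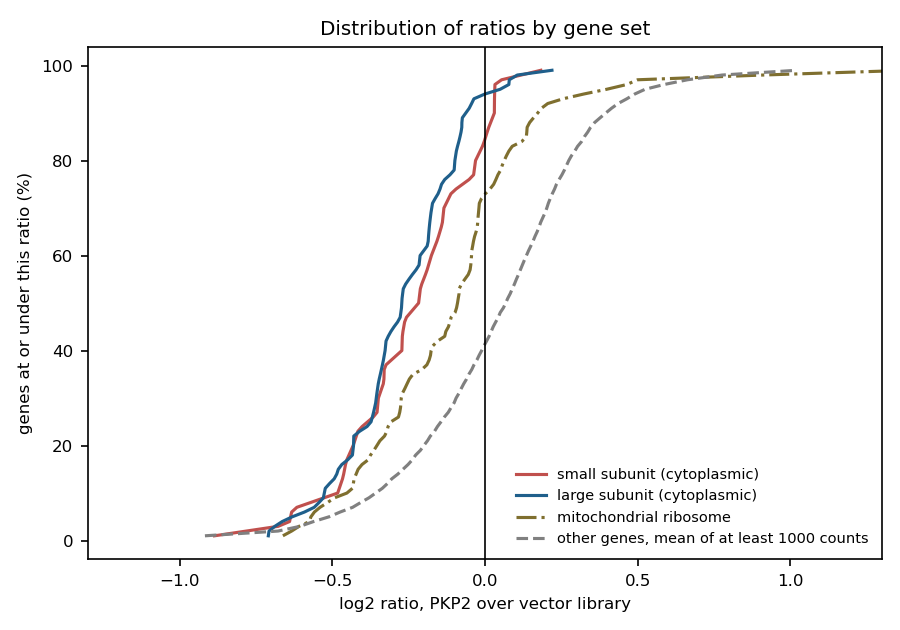
Share of genes at or under each log2 ratio (y axis, percent; x axis, PKP2 library over vector library) for the small and large cytoplasmic subunits, the mitochondrial ribosome and other genes that averaged at least 1000 counts. The curves of the 2 cytoplasmic subunits run close together, with medians of -0.22 and -0.27, left of the mitochondrial ribosome at -0.09 and of the other genes at 0.07.

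In the small subunit RPS28 stood lowest. It had 1531 counts in the PKP2 library and 3583 in the vector library, a ratio of -0.99 (interval -1.08 to -0.90) and the member nearest to 2-fold, at 1.99-fold lower. RPS28 (ENSG00000233927) is a very small protein of the head, the lobe of the small subunit beside the mRNA exit. The gene has 25.8% of its 31-base stretches in common with other genes, and with its own pseudogene rows added the ratio was -0.96. RPS29, a zinc-binding protein of the head, had 806 counts in the PKP2 library and 1482 in the vector library, a ratio of -0.64 (-0.77 to -0.52). RPS19, the gene most often mutated in the inherited anaemia named after Diamond and Blackfan, had 4484 counts in the PKP2 library and 8180 in the vector library, a ratio of -0.63 (-0.68 to -0.58). These were the only small-subunit genes at least 1.5-fold lower, and all belong to the head.

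RPS3A and RPS27 were also among the lowest 6 of the small subunit. RPS3A had 3188 counts in the PKP2 library and 5247 in the vector library, a ratio of -0.48 (-0.55 to -0.42). RPS27, a zinc-finger protein, had 425 counts in the PKP2 library and 691 in the vector library, a ratio of -0.46 with a wide interval of -0.64 to -0.29. RPS3A and RPS27 both have pseudogene rows with more counts than the gene, described further on. With these rows added the ratio of RPS3A was -0.14 and that of RPS27 was -0.39.

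At the other end of the small subunit were genes close to 0. RPS20, RPS3 and RPS4X had ratios of 0.03 each, with intervals of -0.03 to 0.09, -0.02 to 0.08 and 0.01 to 0.05. RPS4X, encoded on the X chromosome, had 29569 counts in the PKP2 library and 34103 in the vector library. RPS24 had 21803 counts in the PKP2 library and 25790 in the vector library, a ratio of -0.01 (-0.03 to 0.02).

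Some small-subunit proteins are known for roles beyond the ribosome. RPS6, the classic substrate of the S6 kinases downstream of mTOR, had 14406 counts in the PKP2 library and 17424 in the vector library, a ratio of -0.04 (-0.07 to -0.01). RPSA, which also occurs as a laminin receptor at the cell surface, had 10026 counts in the PKP2 library and 12068 in the vector library, a ratio of -0.03 (-0.07 to 0.01). RPS27A, made as a fusion with ubiquitin, had 3567 counts in the PKP2 library and 5075 in the vector library, a ratio of -0.27 (-0.33 to -0.21). RPS6 and RPSA thus lay near 0, and RPS27A lay at the median of the members.

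In the large subunit the lowest ratios belonged to RPL37A, RPL36 and RPL13. RPL37A (ENSG00000197756), a zinc-binding protein, had 6290 counts in the PKP2 library and 12136 in the vector library, a ratio of -0.71 (-0.76 to -0.67), 1.64-fold lower. RPL36 had 1708 counts in the PKP2 library and 3284 in the vector library, a ratio of -0.71 (-0.79 to -0.62). RPL13 had 4793 counts in the PKP2 library and 8882 in the vector library, a ratio of -0.65 (-0.70 to -0.60). No other large-subunit gene was 1.5-fold lower.

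RPLP2, RPL28 and RPL13A followed. RPL28 had 4640 counts in the PKP2 library and 7891 in the vector library, a ratio of -0.53 (-0.58 to -0.48). RPL13A, known outside the ribosome from translational silencing of inflammatory mRNAs by the GAIT complex, had 12677 counts in the PKP2 library and 21455 in the vector library, a ratio of -0.52 (-0.55 to -0.49). The pseudogene row RPL13AP5 lay lower as well, with 13737 counts in the PKP2 library and 25973 in the vector library.

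RPL14 alone in either subunit passed the line of 25% higher. RPL14 (ENSG00000188846) had 5082 counts in the PKP2 library and 4754 in the vector library, a ratio of 0.33 (0.28 to 0.39), 1.26-fold higher and just past that line. Its pseudogene rows held more counts than the gene, 8253 in the PKP2 library and 10351 in the vector library, and had a ratio of -0.09. Gene and rows together gave 0.06, and with total counts as library size the gene alone was within the line. RPL23 and RPL15 had ratios of 0.08 each, with intervals of 0.04 to 0.12 and 0.03 to 0.12, and RPL15 together with its rows gave -0.10. RPL22, at -0.03 (-0.10 to 0.03), had 3854 counts in the PKP2 library and 4648 in the vector library.

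The stalk is the flexible arm of the large subunit that recruits the translation GTPases. It consists of the base protein RPLP0, the paired acidic proteins RPLP1 and RPLP2, and RPL12 beside them. RPLP2 had 3675 counts in the PKP2 library and 6403 in the vector library, a ratio of -0.56 (-0.62 to -0.51). RPL12 had 9539 counts in the PKP2 library and 15648 in the vector library, a ratio of -0.48 (-0.51 to -0.44), and RPLP1 had 8034 in the PKP2 library and 12756 in the vector library, a ratio of -0.43 (-0.47 to -0.39). RPLP0, which carries RPLP1 and RPLP2, had 17233 counts in the PKP2 library and 23109 in the vector library, a ratio of -0.19 (-0.22 to -0.16). The stalk median was -0.45 over 4 genes, of which 3 were at least 20% lower, and a correction for GC content brought it to -0.32 with 2 genes past that line.

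RPL5 and RPL11 join the 5S ribosomal RNA in a particle that, when ribosome assembly stalls, binds the ubiquitin ligase MDM2 and inhibits it. RPL5 had 9798 counts in the PKP2 library and 12813 in the vector library, a ratio of -0.15 (-0.19 to -0.11). RPL11 had 10901 counts in the PKP2 library and 15524 in the vector library, a ratio of -0.27 (-0.31 to -0.24). Both were lower by more than their counting intervals and by less than 20%. MDM2 had a ratio of -0.10, and CDKN1A, an inhibitor of the cell cycle, one of -0.22 (-0.31 to -0.14). With the correction for GC content MDM2 came to -0.25 and CDKN1A to -0.0010.

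By place in the ribosome, the groups overlapped widely. The 14 proteins of the small-subunit head had a median of -0.27 with 6 at least 20% lower and RPS28 as the lowest. The 17 other small-subunit proteins had a median of -0.18, with 6 at least 20% lower. The 8 proteins around the exit tunnel had a median of -0.21 with all 8 below 0, and the 32 large-subunit genes outside the tunnel, stalk and 5S particle had a median of -0.27. The 33 proteins with counterparts in bacteria and archaea had a median of -0.21, with 11 at least 20% lower, and the 44 without such counterparts -0.29, with 21. The 18 genes known from Diamond-Blackfan anaemia had the same median to 2 decimals as the 59 others, -0.27. The shortest genes stood somewhat lower, with a median of -0.33 for 25 genes with a coding length under 400 bases and -0.23 for 52 longer ones.

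**Figure D3:**
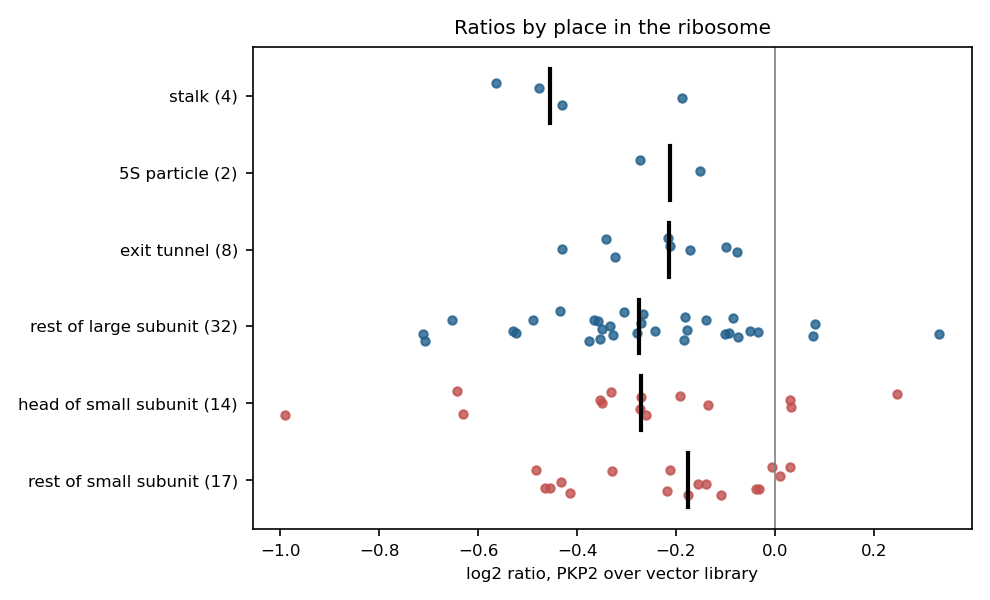
Log2 ratio, PKP2 library over vector library (x axis), of each gene by the place of its protein in the ribosome, with large-subunit groups in blue and small-subunit groups in red. The black bar is the group's median, from -0.45 for the 4 stalk genes to -0.18 for the small subunit outside the head, and the vertical spread of points within a row has no meaning.

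Ratios in these libraries moved with GC content across all genes. Over the 11533 other genes that averaged 100 counts or more, Spearman's rho of the ratio with transcript GC content was -0.61, and over the 77 ribosomal protein genes it was -0.38. These are correlations across genes of 1 pair of libraries, which share depth and preparation, and genes are not independent replicates. Split into 3 classes by the GC content of the coding sequence, the members had medians of -0.18 (5 of 26 at least 20% lower) in the lowest class, -0.27 (11 of 25) in the middle and -0.33 (16 of 26) in the highest. With the trend of the other genes subtracted, the median over all members was -0.22, and 69 were below 0, not all of them the same genes. At least 20% lower were then 21 members, beside 25.5% of the 15991 genes and 12.3% of the 4845 without the correction. With the correction the small-subunit median was -0.14 and the large-subunit median -0.24. Corrected medians of the 3 classes were -0.24 in the lowest, -0.29 in the middle and -0.11 in the highest. The highest class was thus the nearest to 0 after the correction.

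Single genes moved more under this correction. RPL36, whose transcript has 62.1% GC, came to -0.32, and RPLP2 at 60.6% GC came to -0.24. RPL14 came to 0.22, within the line of 25% higher. RPS28 stayed at -0.88 and RPL37A, at 44.7% GC, came to -0.81. Both lay below the middle 50% of other genes of like GC content, as did 47 of the 77 members in all, where 25% of those other genes lie by construction. The corrections for transcript GC content and length rest on 1 annotated transcript per gene. For some members it is far longer than its coding part, with 3647 bases for 276 coding bases in RPL37A and 7072 for 645 in RPL14. With the correction for coding GC content instead, RPL37A came to -0.71, RPS28 to -0.66 and RPL14 to 0.28. A correction for transcript length, which rose with the ratio over other genes (rho 0.24), brought the members' median to -0.10. Comparison with the 100 genes nearest in both GC content and length brought it to -0.12 with 15 members at least 20% lower. Uncorrected, 25.5% of the 15991 genes and 12.3% of the 4845 lay past that line. GC content and length moved with the result, and their part in it beyond these corrections was not tested.

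**Figure D4:**
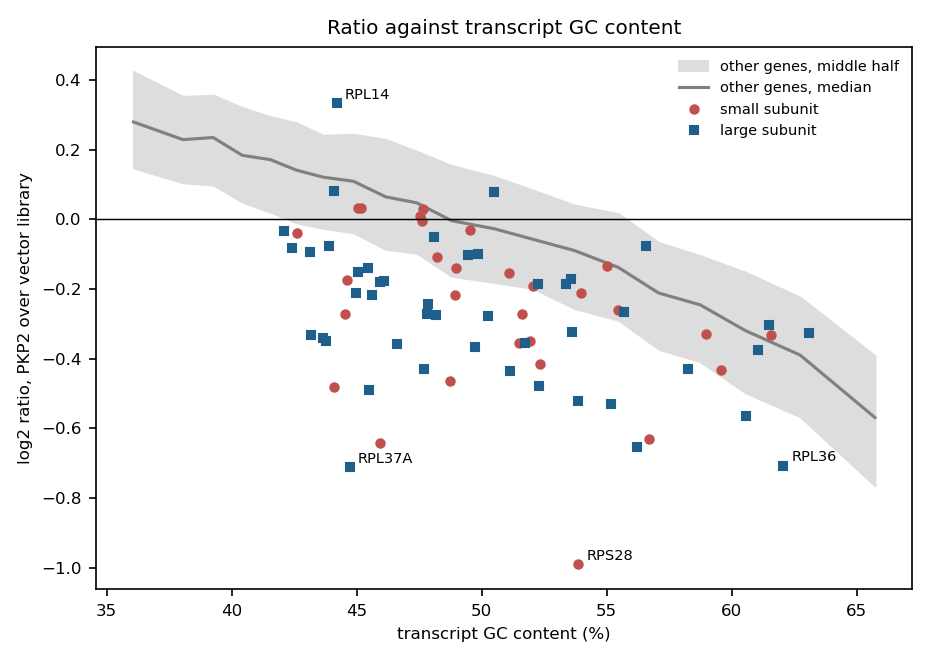
Log2 ratio, PKP2 library over vector library (y axis), against transcript GC content in percent (x axis) for small-subunit genes (circles) and large-subunit genes (squares). The grey line and band are the median and the middle 50% of other genes that averaged 100 counts or more, in 20 classes of equal number. The plot shows 75 of the 77 genes, of which 46 lie below the band of their GC class, RPS28 and RPL37A far below, and 1 lies above it.

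Levels per coding length spread over a wide range, although the ribosome holds most of its proteins in equal number. In CPM per kilobase of coding sequence, levels in the PKP2 library ran from 48.0 for RPL21 to 2714 for RPS24, a range of 56.5-fold with a median of 609. In the vector library they ran from 56.8 for RPL21 to 2833 for RPL41, a range of 49.9-fold with a median of 777. RPL41 encodes a peptide from only 75 coding bases, so its level per length is the least certain. The order of the genes was close in both libraries, with Spearman's rho of 0.96 over 77 genes.

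The highest levels per coding length in the small subunit belonged to RPS24, RPS14 and RPS4X. RPS24 had 2714 CPM per kilobase in the PKP2 library and 2724 in the vector library, RPS14 had 2309 in the PKP2 library and 2673 in the vector library, and RPS4X had 1861 in the PKP2 library and 1822 in the vector library. In the large subunit, by the mean of both libraries, RPL41 (2641 in the PKP2 library and 2833 in the vector library) was followed by RPL19 (1496 in the PKP2 library and 1872 in the vector library) and RPL37A (1132 in the PKP2 library and 1853 in the vector library). In the PKP2 library alone RPL4, RPL26 and RPLP1 stood above RPL37A, with 1369, 1238 and 1167. The lowest levels belonged to RPS26, RPS27 and RPS3A in the small subunit and to RPL21, RPL36A and RPL7 in the large subunit.

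Low levels went together with large pseudogene shares, with a Spearman's rho of -0.33 over the 77 genes. The files list 484 pseudogene rows that are named after 66 of the 77 genes, and 11 genes have none. The rows held 1.16% of all counts in the PKP2 library (235961 counts) and 1.41% in the vector library (331814 counts), while the genes themselves held 2.89% in the PKP2 library and 3.47% in the vector library. For 16 genes the rows held more counts than the gene, and for 26 they held at least 20% of the sum. The sources used here do not say how reads that match both a gene and its copies were assigned.

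RPL21 was the extreme case. It had 464 counts in the PKP2 library and 647 in the vector library, while its pseudogene rows had 9338 in the PKP2 library and 12421 in the vector library, 95.1% of the sum. Most of these lay in RPL21P75, with 8289 counts in the PKP2 library and 11034 in the vector library. Coding bases 1 to 396 of RPL21 (chromosome 13), counted from the first base of the start codon, occur unchanged in RPL21P75 (chromosome 7), and the first difference is G397A, with the base of the gene first. The sequences below, coding bases 337 to 426 from GENCODE 29 transcripts, show how long a read can run without telling one from the other. The capital marks the base that differs.
RPL21: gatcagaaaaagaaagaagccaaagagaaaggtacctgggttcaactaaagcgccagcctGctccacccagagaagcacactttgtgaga
RPL21P75: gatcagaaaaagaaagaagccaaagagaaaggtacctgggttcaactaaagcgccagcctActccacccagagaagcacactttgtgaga
The ratio was -0.24 (-0.42 to -0.07) for RPL21 and -0.18 for its rows together.

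The next genes by this share were RPS27, RPS26 and RPL36A. RPS27 had rows with 5181 counts in the PKP2 library and 7965 in the vector library, 92.2% of the sum. RPS26 had 436 counts in the PKP2 library and 566 in the vector library, a ratio of -0.14 (-0.32 to 0.04), beside rows with 3797 counts in the PKP2 library and 4195 in the vector library, and the sum had a ratio of 0.07. RPL36A had 863 counts in the PKP2 library and 1120 in the vector library, a ratio of -0.14 (-0.27 to -0.01), and its row RPL36AP37 had 6271 in the PKP2 library and 8761 in the vector library. RPL7, at -0.09 (-0.17 to -0.01), had 2189 counts in the PKP2 library and 2751 in the vector library beside rows with 15079 in the PKP2 library and 18706 in the vector library. The pseudogene row with the most counts was RPS2P5, with 20218 in the PKP2 library and 30146 in the vector library, more than its parent RPS2 with 15717 in the PKP2 library and 23271 in the vector library.

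The pseudogene rows lay mostly on the same side as the genes. Of 42 rows that averaged 1000 counts or more, 37 had ratios below 0, and their median was -0.25. Over 39 genes whose rows together averaged 100 counts or more, the rows' median was -0.26 and the genes' -0.22, with a Spearman's rho of 0.40 between them. Reads can match both a gene and its copies, so these values are not independent. With gene and rows summed, 69 of the 77 were below 0, now with RPL15 and without RPS26, the median was -0.26, and 31 were at least 20% lower. The range of levels per coding length narrowed to 11.6-fold in the PKP2 library and 11.9-fold in the vector library.

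**Figure D5:**
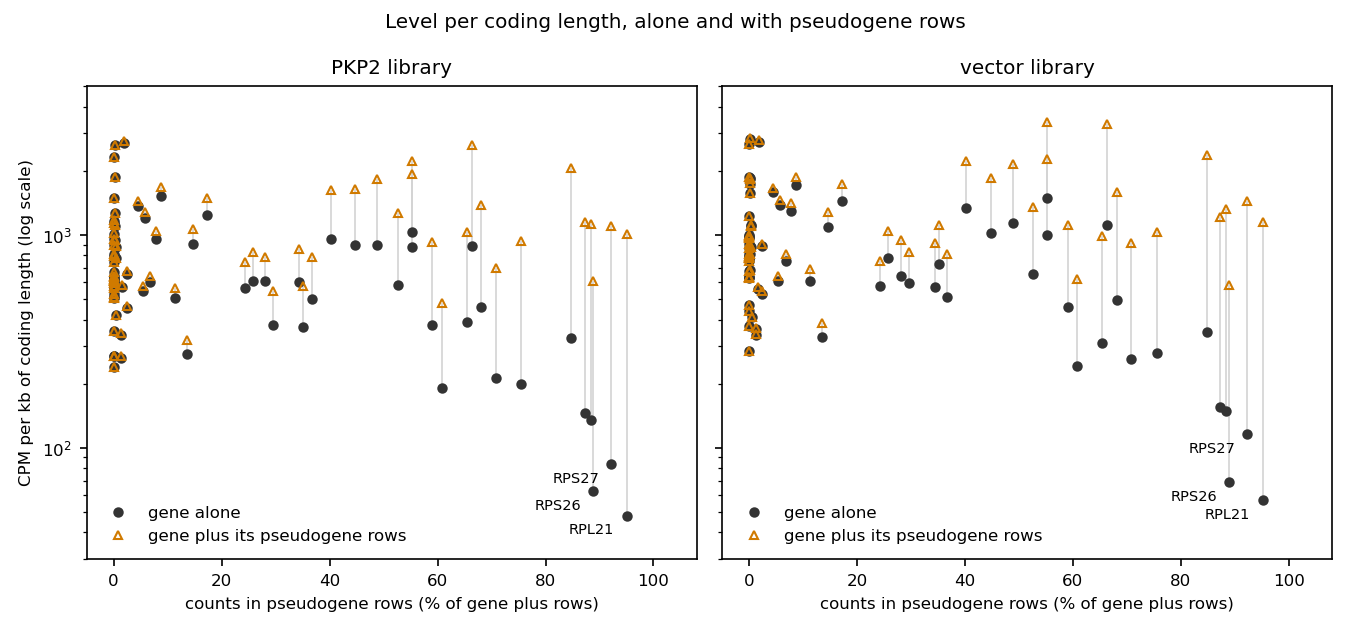
Level per coding length (y axis, CPM per kilobase, log scale) of each ribosomal protein gene alone (dots) and summed with its pseudogene rows (triangles), against the share of the sum that lies in pseudogene rows (x axis, percent), in the PKP2 library and the vector library. Genes at the right, with RPL21 at 95.1%, have the lowest levels alone and join the others when summed.

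Overlapping genes touched a few values. Of the 77 genes, 11 have an exon that overlaps an exon of another listed gene on the same strand. RPL17 had 2118 counts in the PKP2 library and 3160 in the vector library, a ratio of -0.34, and the read-through gene RPL17-C18orf32 had 812 in the PKP2 library and 780 in the vector library, so that the sum had a ratio of -0.19. RPL36A together with RPL36A-HNRNPH2, which had 426 counts in the PKP2 library and 420 in the vector library, gave -0.02. RPS29 overlaps RPL32P29, which had 3 counts in the PKP2 library and 130 in the vector library, and the sum gave -0.76. Summing also brought RPS13, which overlaps PIK3C2A, to -0.07 from its own -0.22. Since the genes of each pair lie on the same strand, the strand setting of the counting would not separate these reads. How they were assigned is not given in the sources used here. Overlaps on opposite strands were not looked for.

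RefSeq start entries on GRCh38.p14 were found for 62 of the 77 genes. A TOP tract as defined above stood exactly at an annotated start in 46 of these 62 genes, 74.2%, against 5.14% of all 27305 genes in the table. A run of this kind beginning within 5 bases of the start was present in 53 genes, 85.5%, against 25.2% of all genes. The 46 genes with the tract had a median ratio of -0.27 and the 16 without it -0.30. Genes without it ran from RPS28 at -0.99 to RPL15 at 0.08 and included RPS29 and RPS4X.

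Other short motifs were counted on both strands in the 250 bases before each start. CCGGAA, the core letters bound by ETS factors, was in 31 of the 62 genes, against 17.2% of all genes. GGGCGG, the core of the GC box, was in 36 of the 62, against 46.2% of all genes. ATGGCG, letters found in sites of the factor YY1, was in 11 genes, 17.7%, against 7.77% of all genes. CACGTG, the E-box bound by MYC, USF and related proteins, was in 3 genes, RPL13A, RPL19 and RPS28, 4.84% against 7.73% of all genes. RPS28, with the lowest ratio, has this E-box directly before its start, and the 120 bases up to the start (chr19:8321376-8321495, plus strand, GRCh38.p14) are shown with the E-box in capitals.
RPS28 upstream: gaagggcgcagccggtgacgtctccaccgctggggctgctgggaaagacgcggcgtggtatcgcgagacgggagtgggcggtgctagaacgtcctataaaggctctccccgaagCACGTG
RPL13A and RPL19 had ratios of -0.52 and -0.32. The genes with CCGGAA had a median of -0.27 and those without it -0.22, those with GGGCGG -0.22 and those without it -0.27, and the 11 with ATGGCG -0.43 and those without it -0.26. A match of letters is a description of the sequence, and binding was not measured.

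Ribosomal proteins outside the naming rule lay on the same side in part. FAU encodes a small-subunit protein fused to a ubiquitin-like protein. It had 1509 in the PKP2 library and 2498 in the vector library, a ratio of -0.49 (-0.58 to -0.40). RACK1, a scaffold on the small-subunit head, had 10053 counts in the PKP2 library and 15756 in the vector library, a ratio of -0.41 (-0.45 to -0.38). Of the paralogs, RPL39L (-0.50), RPS27L (-0.30) and RPL36AL (-0.19) lay below 0, RPL22L1 (0.18) and RPL26L1 (0.17) above, and RPL7L1 at -0.01. RPL10L had 1 count in each library and RPL3L was not listed. RPL22L1 is the paralog that rises when RPL22 is lost, and here RPL22 itself was at -0.03.

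Genes that work with ribosomal proteins had medians nearer to 0 than the members as a whole. The other mRNAs known to carry a TOP tract, mostly translation factors, had a median of -0.10 over 24 genes, with 6 at least 20% lower and 1 higher. Farthest from 0 were EEF1G (1.58), the long noncoding RNA SNHG1 (-0.54), FAU (-0.49) and EEF1D (-0.48). With the GC correction these came to 1.72, -0.67, -0.17 and 0.0082 in that order. The median of the 24 was then -0.16, with 1 at least 20% lower. Below 0 were 20 of them with the correction and 16 without it. Corrected medians were -0.22 for all members and -0.14 for the small subunit. Ribosome biogenesis factors had a median of 0.03 over 32 genes, with 4 at least 20% lower and 2 higher. The lowest were NOP10 (-0.68), a part of the pseudouridylation particle, NIP7 (-0.59), BOP1 (-0.53) and NHP2 (-0.40), and with the GC correction they came to -0.70, -0.71, -0.01 and -0.19 in that order. The 7 dedicated chaperones and escorts had a median of -0.16, with GRWD1, the chaperone of RPL3, at -0.33 (1.26-fold lower, or -0.05 with the GC correction) and the others within the lines. Regulators of TOP mRNAs, 10 genes, had a median of -0.09, with EIF4EBP1 at -0.60, MLST8 at -0.52, LARP4 at 0.35 and MYC at -0.30 on only 170 counts in the PKP2 library and 246 in the vector library. With the GC correction these 4 came to -0.066, -0.030, 0.067 and -0.039, and 0 of the 10 were past either line. The gene of the mTOR kinase itself was at -0.01 and LARP1 at -0.01.

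The mitochondrial ribosome, a separate machine encoded by other nuclear genes, was described in the same way. Its 78 genes had a median of -0.09, with 57 below 0, 18 (23.1%) at least 20% lower and 5 (6.41%) at least 25% higher, against 25.5% and 16.9% of the 15991 genes, and a correction for GC content left the median at -0.09. The median count, as the mean of both libraries, was 6536 for the cytoplasmic genes and 998 for the mitochondrial ones. Ratios of the mitochondrial genes ran over a wider range than those of the cytoplasmic ribosomal protein genes, from -0.72 for MRPL55 to 1.42 for MRPL49. The cytoplasmic genes, at a median of -0.27 with 32 of 77 at least 20% lower, lay lower, and no test of this difference can be made with 1 library a group.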

How the data were processed

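The deposited files hold 1 value per Ensembl gene ID and library, which per the file headers are counts, not normalized. They were whole numbers apart from 1 damaged row in each file, for which reason the authors' deposited values are treated as estimated counts. In each file 2 rows without a readable count were left out, and no rounding was needed. Libraries were made from Trizol-extracted total RNA with an Illumina TruSeq kit, per the labels' protocols. The submitters' processing notes name Bowtie 0.12.2, GRCh37 and hg19. Not given in the sources used here are the counting program, its annotation, its strand setting and how it handled reads matching several places.

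Counts (20319137 in the PKP2 library, 23513304 in the vector library) were scaled by library size times the TMM factor from edgeR 4.0.16 in R 4.3.3, which served for scaling alone. Ratios are log2 of the scaled CPM with no pseudocount, and the 95% intervals are exact Clopper-Pearson intervals of the 2 counts. Since the reads carry no molecular identifiers, the intervals cover counting error only. With 1 library a group no p-value was computed. Symbols were found for 22579 of 22965 IDs. Transcript GC content, coding length, gene type and shared 31-base stretches came from GENCODE 29 by gene ID. Overlaps came from its exon coordinates on the same strand, although its build is not that of the notes. The GC and length corrections subtract a lowess curve (fraction 0.3; statsmodels 0.14.6) fitted to non-members with a mean of at least 100 counts. Pseudogene rows carry a member's symbol followed by P and a number and are typed as pseudogenes. DESeq2 1.42.0 size factors were an alternative. The steps were tested on simulated counts and run in Python 3.11.15 with SciPy 1.17.1, pandas 2.3.3, matplotlib 3.10.9 and NumPy 2.4.6.

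The members, lists, lines of change and alternatives were chosen with earlier results of these data known. Named with values were the 6 lowest and 4 highest ratios and the 3 highest and lowest levels in each subunit, the stalk, the 5S particle, RPS6, RPSA, RPS27A, the 3 genes with the largest pseudogene share, paralogs, fusions and RACK1, and up to 4 genes of each other list. RPL17, RPS13, RPS2, RPL4, RPL26, MTOR and LARP1 were chosen after their values were seen. A few genes that this rule names are left out of the text and of the plots that label genes, and stay in all counts and medians.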

Additional observations from a re-analysis of the deposited data

How the results depend on the processing

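With 1 library a group no replicate could be left out, so the spread between cultures is unknown. No paired analysis was possible because each group has 1 library. No alternative turned the sign of a median over all members or either subunit, or of the share of counts. Of the members at least 20% lower, RPL8 came to 0.11 with the GC correction and 0.11 against the nearest genes, RPS15 to 0.035 with the GC correction, 0.021 with the coding GC correction and 0.14 against the nearest genes, and RPL18 to 0.0070 against the nearest genes. These genes were chosen after their values were seen. The correction for transcript length brought the medians to -0.10 for all members, -0.13 for the large subunit and -0.058 for the small subunit, and the nearest genes in GC content and length brought them to -0.12, -0.17 and -0.062. Members at least 20% lower were 32 in the report. They numbered 21 with the GC correction, 11 with the length correction, 15 against the nearest genes and 18 with the coding length correction. At lines of 1.5-fold and 2-fold they numbered 6 and 0. Uncorrected, 25.5% of the 15991 genes and 12.3% of the 4845 were at least 20% lower. The shares of all genes under each correction are not given here, so the excess of members over other genes is not known for the corrected numbers. Members at least 25% higher, 1 in the report, numbered 0 with total counts as library size, with or without mitochondrial genes, with pseudogene rows summed, without members that have fewer counts than their pseudogene rows, and at the 1.5-fold and 2-fold lines. The log2 ratio of shares was -0.27 with pseudogene rows summed. The cause was not tested. Members above 0 numbered 8 in the report, 9 with DESeq2 size factors, 7 with total counts and 26 with the length correction, and RPS24, RPS6 and RPSA were among those that lay above 0 with that correction. Of the values of single named genes 273 stayed within their counting interval and 150 did not. A further 6, given above, changed sign in members at least 20% lower. Sign changes of genes nearer to 0, such as RPS24, RPS6 and RPSA with the length correction, are not among these 6. The coding GC, coding length, read-through and outnumbered-member alternatives were chosen after seeing the data. Intervals are widest for RPS26, RPS27 and RPL21.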
